A study of Caenorhabditis elegans with 3 samples.

Results

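The genes described here encode subunits of RNA polymerase II (symbols rpb-), the TBP-associated factors of the general factor TFIID (taf-) and Mediator (mdt-) in Caenorhabditis elegans. All protein-coding genes with such a symbol followed by a digit were taken from the Ensembl annotation of assembly WBcel235, which gave 48 of 19973 nuclear protein-coding genes: 11 rpb, 17 taf and 20 mdt genes. They were chosen by name and not by any measured value, although earlier results of these data were known when the choice was made. The binding of MEP-1, a zinc-finger protein that works with the LET-418 chromatin remodeller in the nucleus, was mapped by ChIP-seq in whole L4 larvae of both sexes, in 1 group of 3 biological replicates. All larvae were of strain OP102, which carries the mutation unc-119(tm4063) III and the transgene wgIs102. In that transgene MEP-1 has a GFP-FLAG tag at its C-terminus, as a note on replicate 3 states. The labels list stock from the CGC and library fragments of 150 to 350 bp for replicates 1 and 2. For replicate 3 they list the Michael Snyder laboratory as the source, sonication with a microtip and no fragment size, so its differences from the other replicates cannot be told apart from source and preparation. There is no other stage, genotype or untagged strain among these samples, and whole animals mix the germ line with all somatic tissues.

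RNA polymerase II makes messenger RNA, and several of its small subunits are shared with the polymerases that make ribosomal and transfer RNA. TFIID, built from the TATA-binding protein and the TAFs, marks the core promoter, and many TAFs pair with each other through histone-fold domains. Mediator links transcription factors to the polymerase through its head, middle and tail modules and a separable kinase module. Subunit genes of these complexes are used in nearly every cell, and in worms many such genes lie in operons or back to back with a neighbour.

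A gene is called bound here when the point source of a region, the base at which the authors placed its summit, fell in the window from 500 bp before to 100 bp after any of its annotated transcription start sites (TSSs). The reproducible list (IDR, irreproducible discovery rate) held 5229 regions, 5209 of them on nuclear chromosomes. Each replicate list held 30000 regions under a relaxed threshold, and its 5167 highest-scoring distinct regions, as many as the distinct IDR intervals, are called its top regions. The authors' score, the signal value of a region, ranks regions within a list only. Ranks below start from 1 at the highest score. The lists carry no read depth. No test was made, because there is only 1 group.

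MEP-1 was bound at 15 of the 48 promoters (31.2%), against 12.7% of all protein-coding genes. The top regions of replicates 1, 2 and 3 alone gave 16, 16 and 15 members (mean 32.6% ± 1.2, SD, n = 3), against 12.9%, 12.4% and 12.8% of all protein-coding genes. Counting only members that reached the top regions in each of the 3 replicates left 12 (25%), against 8.75% of all protein-coding genes. The 3 families had different shares: 5 of 11 rpb genes (45.5%), 6 of 17 taf genes (35.3%) and 4 of 20 mdt genes (20%). In replicates 1, 2 and 3 the rpb genes gave 6, 6 and 5, the taf genes 6, 6 and 5, and the mdt genes 4, 4 and 5. No test of the difference between families was made, and the families also differed in their upstream neighbours, as described below.

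The sequence at the point source is shown first for 1 highly ranked member of each family, to show the DNA under high-scoring sites. These are rpb-11 and mdt-9, which rank highest in their families, and taf-11.3, which ranks next after taf-4. Each is read 5′ to 3′ on the strand of the gene, centred on the IDR point source, from the RefSeq copy of the ce11 assembly (WBcel235). Capitals mark any match, on either strand, to one of 8 short motifs. These were GAGAG for GA repeats, TATAAA for the TATA box, TTTCAG for the trans-splice acceptor and GGTTCGA for the tRNA B box. The others were CACGTG for the E box, TTTGAA for the cell cycle homology element, and the hexamer GTGTGC with the hexamer GGGCGG, both noticed in these stretches.
rpb-11, chrII:14059907-14060027 (+ strand): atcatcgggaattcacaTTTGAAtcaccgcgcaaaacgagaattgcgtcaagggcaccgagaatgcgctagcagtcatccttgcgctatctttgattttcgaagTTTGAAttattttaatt
taf-11.3, chrIII:10505337-10505457 (- strand): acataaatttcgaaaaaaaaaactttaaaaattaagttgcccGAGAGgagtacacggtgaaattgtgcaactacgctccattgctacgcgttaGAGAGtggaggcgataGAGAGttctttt
mdt-9, chrIV:13386188-13386308 (+ strand): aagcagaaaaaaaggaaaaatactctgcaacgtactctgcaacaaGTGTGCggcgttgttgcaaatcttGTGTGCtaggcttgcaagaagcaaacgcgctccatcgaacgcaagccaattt
The rpb-11 stretch holds TTTGAA near both of its ends. That of taf-11.3 holds GAGAG, and that of mdt-9 holds GTGTGC.

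Other bound members shared GTGTGC near the point source. They are shown because the hexamer was noticed on reading these stretches, and was then counted over all regions. The mdt-22 stretch ends just before the gene's annotated start.
rpb-4, chrII:7374274-7374394 (+ strand): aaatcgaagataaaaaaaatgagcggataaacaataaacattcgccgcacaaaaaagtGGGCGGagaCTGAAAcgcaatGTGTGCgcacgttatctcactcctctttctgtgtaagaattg
taf-10, chrV:4686831-4686951 (+ strand): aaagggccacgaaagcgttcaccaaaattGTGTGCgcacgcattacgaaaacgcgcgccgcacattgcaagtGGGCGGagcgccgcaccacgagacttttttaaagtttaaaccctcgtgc
taf-11.1, chrX:4254976-4255096 (+ strand): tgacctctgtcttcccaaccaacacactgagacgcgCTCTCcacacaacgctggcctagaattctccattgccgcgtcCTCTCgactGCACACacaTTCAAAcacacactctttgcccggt
mdt-1.2, chrX:17151285-17151405 (+ strand): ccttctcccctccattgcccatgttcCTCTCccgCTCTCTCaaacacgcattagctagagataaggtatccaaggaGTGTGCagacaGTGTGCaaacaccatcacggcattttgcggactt
mdt-22, chrII:10301102-10301215 (+ strand): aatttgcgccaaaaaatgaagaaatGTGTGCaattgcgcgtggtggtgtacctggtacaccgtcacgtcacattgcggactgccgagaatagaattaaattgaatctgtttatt
In rpb-4 and taf-10 the hexamer stands near a GGGCGG. In taf-11.1 and mdt-1.2 it stands near GAGAG.

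Among the rpb genes whose products are found only in RNA polymerase II, 4 of 6 promoters were bound (66.7%), against 12.7% of all protein-coding genes. Replicates 1, 2 and 3 gave 5, 5 and 4. The gene of the largest subunit, ama-1, falls outside the naming rule and is not in this count. It was not bound. The highest-ranked of all members was rpb-11, which with RPB-3 forms the dimer on which the polymerase is assembled. Its region on chromosome II (ce11, 14059838 to 14060107) had an IDR score of 378.6 and rank 204 of 5209. Its scores in replicates 1, 2 and 3 were 160.5, 151.6 and 63.38, at ranks 197, 255 and 356 of those lists. The partner gene rpb-3 was also bound, with an IDR score of 205.0 at rank 876. Its scores in replicates 1, 2 and 3 were 91.05, 75.47 and 33.23, at ranks 762, 1148 and 1430. Thus both genes of this dimer were bound in every replicate, and rpb-11 ranked above rpb-3 in each.

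The genes of the detachable stalk, rpb-4 and rpb-7, were bound too, and their IDR scores were both 135.7, at ranks 1786 and 1788. In replicates 1, 2 and 3 the scores of rpb-4 were 50.96, 54.45 and 26.34, at ranks 2179, 2031 and 2193. Those of rpb-7 were 59.72, 51.70 and 21.92, at ranks 1673, 2225 and 2952. The stalk genes therefore lay in the top regions of every replicate, at similar ranks. The gene of the second largest subunit, rpb-2, had no region in its window in any list. The gene rpb-9, whose product acts in start-site choice and proofreading in yeast, was outside the IDR list. It lay in the top regions of replicates 1 and 2 (ranks 5025 and 4585) and at rank 8681 in replicate 3.

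Of the 5 rpb genes whose products are shared by all 3 polymerases, only rpb-8 was bound (20%), against 12.7% of all protein-coding genes. Its IDR score was 86.80 at rank 3444. Its scores in replicates 1, 2 and 3 were 42.08, 28.91 and 15.46, at ranks 2947, 5257 and 4814, so that replicate 2 missed the top regions by a small number of ranks. The gene rpb-10 was in the top regions of replicate 2 only (rank 3352), had rank 8556 in replicate 3 and had no region in replicate 1. The genes rpb-5 and rpb-6 had only regions of lower rank, and rpb-12 had none.

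Of the TAF genes, taf-4 and taf-11.3 ranked highest. taf-4, whose product is a scaffold of TFIID needed broadly for transcription in the worm embryo, had an IDR score of 212.2 at rank 820. Its scores in replicates 1, 2 and 3 were 73.27, 100.9 and 42.74, at ranks 1177, 646 and 895. taf-11.3 had an IDR score of 183.3 at rank 1091, and its scores of 66.79, 68.75 and 47.84 had ranks 1382, 1365 and 701. Among the bound members it is the one in which replicate 3 stood furthest above both others in rank. taf-3, which has 4 annotated TSSs, had an IDR score of 146.6 at rank 1566. Its scores in replicates 1, 2 and 3 were 52.26, 61.08 and 31.47, at ranks 2093, 1701 and 1575.

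The other 3 bound TAF genes ranked lower. taf-11.1 had an IDR score of 117.7 at rank 2234, with scores of 60.99, 35.67 and 22.19 at ranks 1612, 3935 and 2890 in replicates 1, 2 and 3. taf-10 had an IDR score of 92.78 at rank 3144, with scores of 38.42, 38.63 and 14.53 at ranks 3375, 3507 and 5261. taf-6.2 had an IDR score of 85.83 at rank 3488, with scores of 40.82, 27.87 and 12.27 at ranks 3086, 5499 and 6509. So taf-10 missed the top regions of replicate 3, and taf-6.2 those of replicates 2 and 3. With rpb-8 these are the 3 bound members absent from the top regions of at least 1 replicate.

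Histone-fold pairs are known from yeast and human TFIID. Of these, taf-4 was bound and its partner gene taf-12 was not, and taf-6.2 was bound and taf-9 was not. The product of taf-10 can pair with those of taf-3, which was bound, and of taf-8, which was not; taf-10 itself was bound. Likewise taf-11.1 and taf-11.3 were bound while taf-13 was not. Among gene copies, taf-6.1 and taf-11.2 were not bound although taf-6.2, taf-11.1 and taf-11.3 were, and neither taf-7.1 nor taf-7.2 was in the IDR list. taf-7.2 was in the top regions of replicate 2 alone, with rank 4645 there and ranks 8475 and 6473 in replicates 1 and 3. taf-1, which encodes the largest TAF, and taf-2 had no region in their windows in any list.

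The bound mdt genes belong to the head and middle modules. Only mdt genes are counted by module here. Mediator genes with other symbols, among them sur-2, which was bound, are described further below. Of the 6 middle genes, 2 were bound (33.3%), and of the 9 head genes, 2 (22.2%), against 12.7% of all protein-coding genes. Each module holds few genes, and no test of a difference between modules was made. mdt-9, of the middle module, had an IDR score of 223.1 at rank 729, and its scores of 103.3, 73.35 and 47.66 had ranks 581, 1222 and 710 in replicates 1, 2 and 3. mdt-1.2, also of the middle module, had an IDR score of 221.1 at rank 744. Its scores in replicates 1, 2 and 3 were 100.3, 88.67 and 38.04, at ranks 624, 866 and 1113. Their IDR ranks stood next to each other among the members, and each replicate had both among its top regions.

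In the head, mdt-18 and mdt-22 were bound. mdt-18 had an IDR score of 162.6 at rank 1343, with scores of 62.97, 66.68 and 26.81 at ranks 1538, 1451 and 2120 in replicates 1, 2 and 3. mdt-22 had an IDR score of 157.5 at rank 1417, with scores of 60.22, 69.98 and 27.01 at ranks 1646, 1325 and 2087. The other head genes, mdt-6, mdt-8, mdt-11, mdt-17, mdt-20, mdt-28 and mdt-30, were not bound, nor were mdt-4, mdt-10, mdt-21 and mdt-31 of the middle module. None of the 3 mdt genes of the tail was bound. Mediator genes with other symbols, such as the bound sur-2, are outside that count, so it does not describe the whole tail. Among the 3 was mdt-15, whose product acts with nuclear hormone receptors in lipid metabolism. It had regions at rank 7897 in replicate 1 and 9936 in replicate 2 and none in replicate 3. mdt-27 had ranks 9264 and 21948 in replicates 1 and 3, and mdt-29 had no region.

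**Figure D1:**
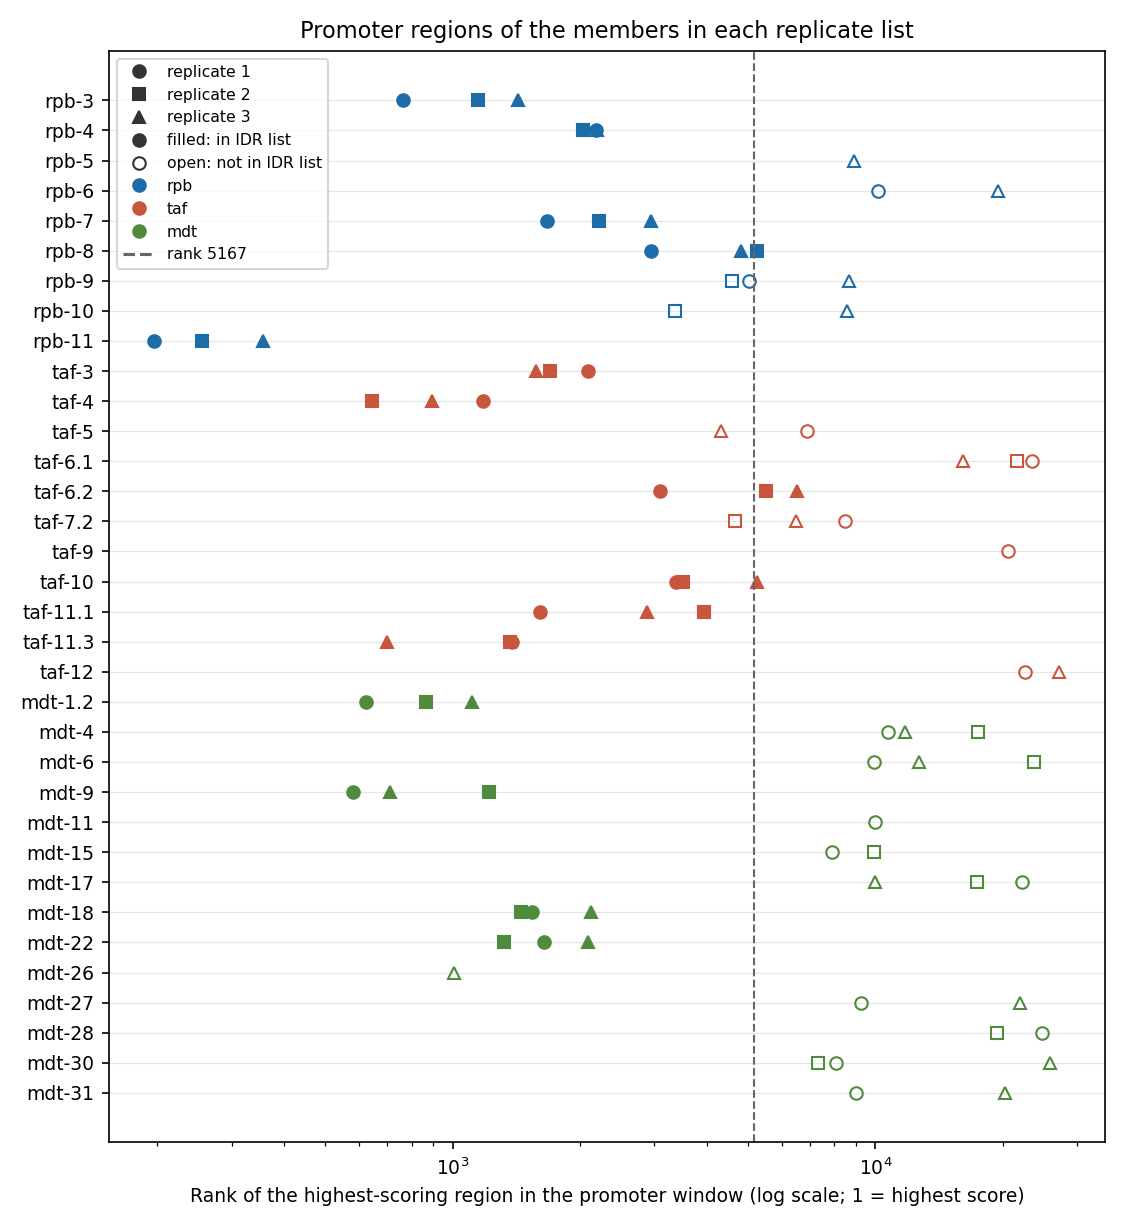
Rank of the highest-scoring region in the promoter window of each member in each replicate list, on a log axis; a member without a symbol for a replicate had no region there, and members with none in any list are left out. The 12 members bound in all 3 replicates have all symbols left of rank 5167, rpb-11 is leftmost (197 to 356), and most members outside the IDR list (open symbols) lie to the right.

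Of the 33 unbound members, 5 were in the top regions of at least 1 replicate, 14 had only regions of lower rank (7312 to 27256), and 14 had no region in the window in any replicate list. The last group was rpb-2, rpb-12, taf-1, taf-2, taf-7.1, taf-8, taf-11.2, taf-13, mdt-8, mdt-10, mdt-19, mdt-20, mdt-21 and mdt-29. The same split was not made over all protein-coding genes, so these counts are not read as many or few. Anywhere in the relaxed lists, 31, 25 and 30 of the 48 members had a region in replicates 1, 2 and 3. Among all 19973 protein-coding genes, 5873, 5790 and 6369 did (29.4%, 29.0% and 31.9%), a smaller share than among the members in each replicate. These lists reach into background, so a low-ranked region is not read as binding. Over the 15 bound members the order of ranks was similar between replicates, with Spearman's rho of 0.868 for replicates 1 and 2, 0.882 for 1 and 3, and 0.893 for 2 and 3. These coefficients are descriptions over members that were all selected by the same list.

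Several members had a strong region close to the window but outside it. Upstream of mdt-19, a point source with an IDR score of 347.3 (rank 260) lay at −778 bp, and the same region had ranks 242, 291 and 497 in replicates 1, 2 and 3. Upstream of taf-12, one with a score of 295.3 (rank 410) lay at −919 bp, with ranks 473, 364 and 428. Upstream of mdt-6, one with a score of 284.3 (rank 443) lay at −907 bp, with ranks 396, 527 and 626. These 3 regions rank above those of all bound members other than rpb-11, in the IDR list.

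The gene mdt-26, whose human homologue helps recruit elongation factors, had a broad region on the other side of its start. On chromosome II (ce11, 5661005 to 5662193) it spanned the TSS and had point sources at +170 bp (score 176.3) and +656 bp (score 264.0). Replicate 3 placed a separate point source at −42 bp (score 39.81, rank 1006), inside the window. The highest point source of the region near the start was at +136 bp in replicate 1 and +624 bp in replicate 2. For taf-5 the IDR point source lay at +246 bp (score 87.63), and replicate 3 had one at +69 bp (rank 4319). When any overlap of a region with the window was counted, mdt-26 and taf-5 became bound, giving 17 members (35.4%), against 14.3% of all protein-coding genes.

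The bound members lay in the upper and middle parts of the IDR list. Their median score was 157.5 (85.83 to 378.6) and their median rank 1417, while all 2533 bound protein-coding genes had a median score of 126.9 and a median rank of 1993. When the IDR list was cut into 4 equal parts, from the highest scores down, 6, 6, 3 and 0 members fell in each, while 34.9%, 26.3%, 20.8% and 18.1% of all bound protein-coding genes did.

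Point sources of 14 of the 15 bound members lay upstream of the TSS, with a median of −144 bp (quartiles −169 and −120, range −317 to 21). For all bound protein-coding genes the median was −188 bp (quartiles −294 and −108). The members' median was −126, −143 and −132 bp in the top regions of replicates 1, 2 and 3. For a single member the replicates' point sources differed by 4 bp (taf-11.1) to 90 bp (taf-6.2), with a median range of 25 bp. The farthest upstream were taf-4 (−317 bp) and taf-3 (−315 bp), and only that of rpb-7 (+21 bp) lay downstream of the TSS. mdt-18 has 4 annotated TSSs, and its point source lay upstream of an inner one, inside the longest transcript. It was not bound when the outermost TSS alone was used. The members' regions had a median width of 270 bp, against 404 bp for all bound protein-coding genes. In the top regions of replicates 1, 2 and 3 the median widths were the same for members and for all bound protein-coding genes, at 390, 404 and 396 bp. These widths recur exactly from region to region within their lists, as does 404 bp in the IDR list, for example at rpb-7, rpb-8 and taf-3. The medians are therefore not read as a difference or a likeness in width. Annotated starts of worm genes are often trans-splice sites, so the primary transcript may begin elsewhere than the position used here.

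**Figure D2:**
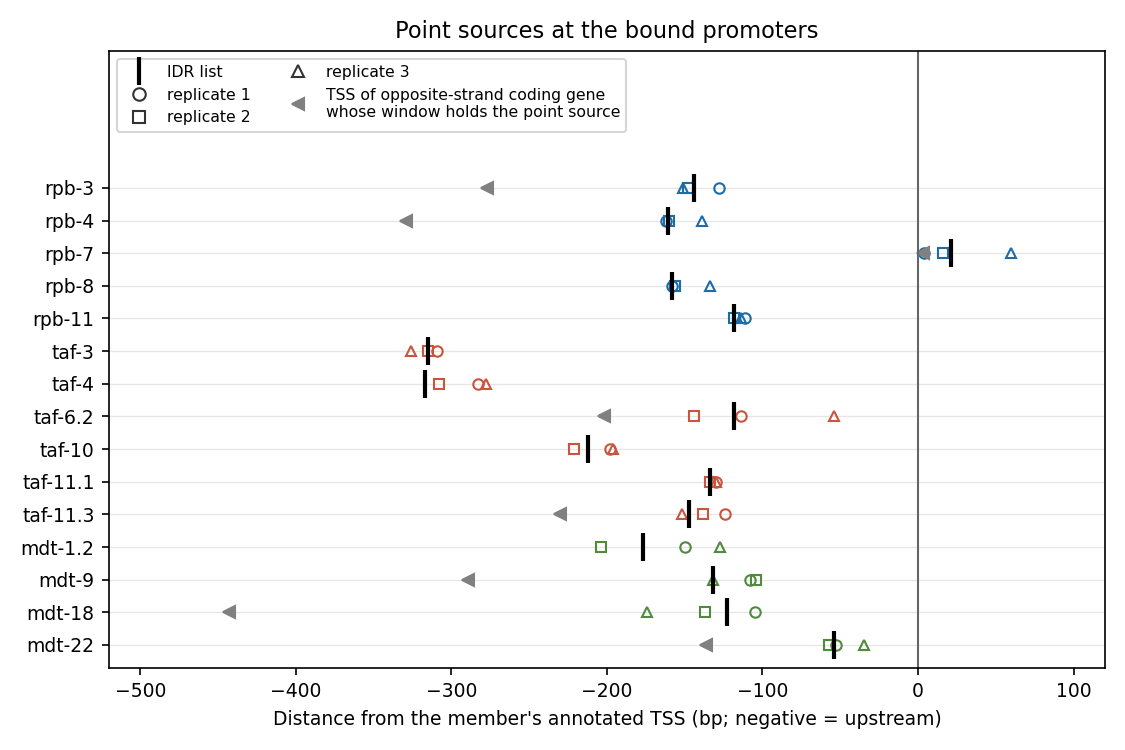
Distance in bp of the point source from the annotated TSS for the 15 bound members, in the IDR list (black bars) and in replicates 1, 2 and 3 (open symbols); grey triangles mark the TSS of an opposite-strand coding gene whose promoter window holds the same point source. Most point sources lie near the median of −144 bp, taf-3 and taf-4 lie at −315 and −317 bp, and rpb-7 lies at +21 bp.

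The genes differed by what lay upstream of them. A member was called close behind where a coding gene on the same strand ended within 500 bp upstream. Failing that, it was called divergent where a coding gene on the opposite strand started within 1000 bp upstream, and stand-alone otherwise. Both distances were taken from the member's outermost TSS. By this rule mdt-18 was stand-alone, although its bound inner TSS lies 443 bp from the opposite-strand start of uri-1. Of the 12 divergent members, 8 were bound (66.7%), against 27.4% of all divergent protein-coding genes. Of the 18 stand-alone members, 6 were bound (33.3%), against 8.90% of all such genes. Of the 18 close behind a same-strand gene, 1 was bound (5.56%), which was rpb-8, against 11.3% of all such genes. In replicates 1, 2 and 3 the divergent members gave 8, 9 and 8, the stand-alone members 6, 6 and 6, and the close-behind members 2, 1 and 1. By family, 3 of 5 divergent rpb genes, 3 of 4 divergent taf genes and 2 of 3 divergent mdt genes were bound. Among stand-alone members it was 1 of 2 rpb, 3 of 9 taf and 2 of 7 mdt genes.

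**Figure D3:**
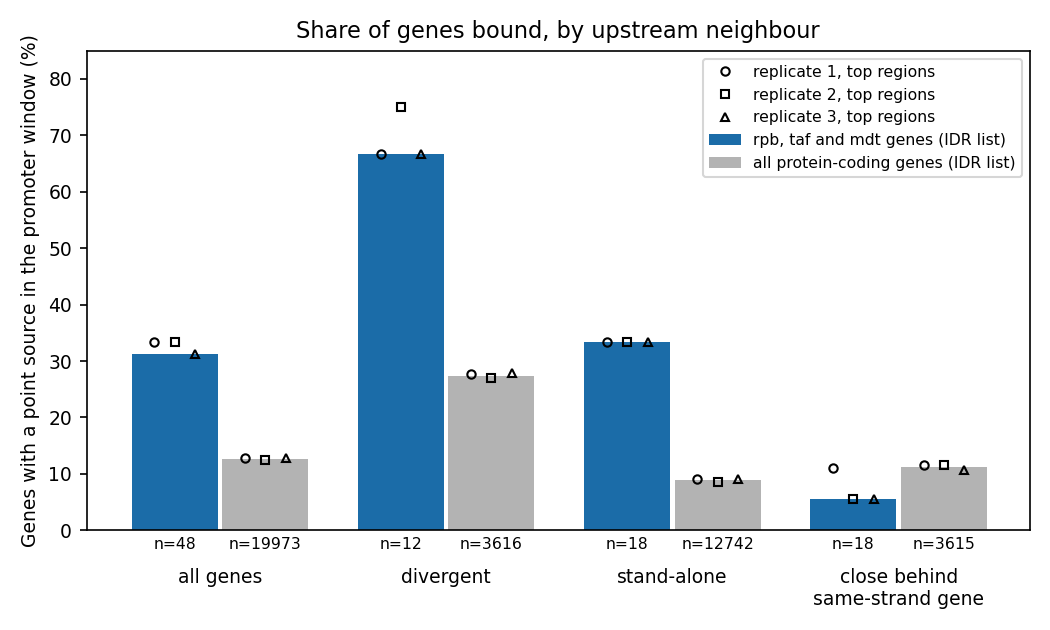
Percentage of genes with a point source in the promoter window, for members (blue) and all protein-coding genes (grey), over all genes and by upstream neighbour; bars give the IDR list, black symbols the top regions of each replicate, and n the number of genes. Divergent members stand at 66.7% and close-behind members at 5.56%, against 27.4% and 11.3% of all protein-coding genes of those kinds.

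The close-behind arrangement was more frequent among the members (37.5%) than among all protein-coding genes (18.1%), and 10 of its 18 members were mdt genes, 4 rpb and 4 taf. None of those 10 mdt genes was bound at its own promoter. Such genes can be transcribed from the promoter of the first gene of an operon, so the first gene of each run of same-strand genes with gaps of at most 500 bp was also examined. That comparison was added once the counts had been seen. By its own promoter or that of the first gene of its run, 7 of the 18 were bound (38.9%), against 29.6% of all protein-coding genes close behind a same-strand gene. Over all members this count was 21 (43.8%), against 16.0% of all protein-coding genes. By family it was 6 of 11 rpb genes (54.5%), 6 of 17 taf genes (35.3%) and 9 of 20 mdt genes (45.0%). A run is a rule on distance, and whether a given run is an operon was not tested.

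The first genes in question were wip-1 for mdt-11 (score 788.5, rank 36), Y57E12AL.6 for mdt-6 (284.3, rank 443) and Y62F5A.12 for mdt-8 (219.6, rank 759). prmt-1 stood before mdt-17 (135.2, rank 1803), Y97E10AR.6 before rpb-9 (88.05, rank 3379) and cec-3, which encodes a chromodomain protein, before mdt-10 (85.93, rank 3484). The wip-1 region ranked above that of every bound member. The region at −907 bp from mdt-6 described above is the same one that lies at the start of Y57E12AL.6. For mdt-15, rpb-2 and rpb-5 the first genes of the run (R12B2.6, mrps-18C and syp-4) were not bound.

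At 8 of the 15 bound members (53.3%) the point source also lay in the window of another coding gene, against 35.6% of all bound protein-coding genes. The opposite-strand partners were pas-4, a proteasome gene, for rpb-3, the mitochondrial carrier homologue mtch-1 for rpb-4, Y54E10BR.2 for rpb-7 and Y37E11AL.3 for taf-6.2. They were urm-1, a ubiquitin-related modifier gene, for taf-11.3, Y62E10A.20 for mdt-9, uri-1 for mdt-18 and clpp-1, a mitochondrial protease gene, for mdt-22. For mdt-9 the same-strand gene Y62E10A.23 also shared the point source. The TSSs of these opposite-strand pairs were 3 bp (rpb-7) to 443 bp (mdt-18) apart.

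The point source was nearer to another gene's TSS than to the member's own for rpb-3, rpb-7, taf-6.2, taf-11.3 and mdt-9. That is 5 of 15 (33.3%), against 27.4% of all bound protein-coding genes. With the window from 1000 bp before to 200 bp after the TSS it was 8 of 20 (40.0%), against 33.7%, and with that from 200 bp before to 100 bp after it was 5 of 12 (41.7%), against 16.1%. The start of rpb-3, for example, lay 144 bp from the point source, that of pas-4 133 bp, and that of the non-coding gene C36B1.16 88 bp. For taf-6.2 the distances were 118 bp to its own start and 84 bp to that of Y37E11AL.3. Which gene of a pair a region serves cannot be told from these lists. mdt-22 lay 54 bp from its own start and 82 bp from that of clpp-1, and is among the pairs in which the member is nearer.

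Bound members were found on every chromosome: 4 of 10 on I (17.2% of all protein-coding genes there), 3 of 11 on II (10.7%), 2 of 12 on III (18.5%), 2 of 5 on IV (11.6%), 1 of 6 on V (8.47%) and 3 of 4 on X (13.8%). The X-linked ones were taf-3, taf-11.1 and mdt-1.2, and the unbound X-linked member was taf-7.1.

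The sequences at the point sources were searched on both strands for 6 motifs in 200 bp, beside the same search at all 2083 point sources in coding promoter windows and at all 5209 nuclear regions. TTTGAA, the core of the cell cycle homology element found at targets of the DREAM complex, was present at 10 of 15 members (66.7%), against 34.8% of bound promoters and 31.6% of all regions. Within 100 bp it was present at 4 members (26.7%), against 17.4% of bound promoters. In the 300 bp from 250 bp before to 50 bp after the TSS, TTTGAA was found at 12 of 15 bound members (80.0%) and 13 of 33 unbound members (39.4%), against 57.8% of all bound protein-coding promoters and 62.5% of all promoters. Over all genes, therefore, bound promoters did not hold it more often. The 10 members were rpb-3, rpb-8, rpb-11, taf-3, taf-4, taf-11.1, mdt-1.2, mdt-9, mdt-18 and mdt-22. Of the stretches printed above, those of rpb-11 and taf-11.1 show the match in capitals. At mdt-1.2, mdt-9 and mdt-22 the match lay in the 200 bp but outside the printed stretch.

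GAGAG, the unit of GA repeats, was present at 5 members (33.3%), against 52.9% of bound promoters and 57.0% of all regions. Within 100 bp its share was again 33.3%, against 38.1% and 40.4%. In the 300-bp promoters it was found at 40.0% of bound members, against 50.5% of all bound promoters and 39.9% of all promoters. The 5 members were rpb-8, taf-3, taf-11.1, taf-11.3 and mdt-1.2, and the printed taf-11.1, taf-11.3 and mdt-1.2 stretches hold it more than once. TTTCAG, which resembles the trans-splice acceptor, was present at 4 members (26.7%), against 19.8% of bound promoters, and within 100 bp at 2 (13.3%), against 6.63%. TATAAA, the TATA box, was present at 1 member, taf-4 (6.67%), against 17.2%, and within 100 bp at none, against 6.72%. CACGTG, an E box, and GGTTCGA, the B box of tRNA genes, were present at none, against 6.0% and 1.97% of bound promoters. The median GC content of the 200 bp was 38.5% for the members, 40.5% for bound promoters and 41.5% for all regions.

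GTGTGC, the hexamer shown above and chosen after the sequences had been read, was present within the same 200 bp at 7 of 15 members (46.7%), namely rpb-4, taf-6.2, taf-10, taf-11.1, mdt-1.2, mdt-9 and mdt-22. Its share was 17.3% of bound promoters and 15.6% of all regions. In the 300-bp promoters it was found at 8 of 15 bound members (53.3%) and 1 of 33 unbound members (3.03%), against 14.6% of all bound protein-coding promoters and 9.75% of all promoters. GGGCGG, noticed beside it, was present at 2 members (13.3%), against 10.6% of bound promoters. The unbound members' promoters had a lower median GC content (32.0%) than those of the bound members (37.0%), and its part in these shares was not tested. A match is a description of letters and not of a bound factor.

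Genes of the same machinery whose symbols fall outside the naming rule were examined in the same way, beside the background of 12.7%. Of 10 other RNA polymerase II and Mediator genes, 4 were bound (40.0%), and replicates 1, 2 and 3 gave 3, 3 and 4. They were dpy-22 and cic-1 of the kinase module (IDR scores 214.2 and 90.56), sur-2 (140.5), which acts in vulval induction, and sop-3 (80.63). The point source of dpy-22 lay at −490 bp, near the edge of the window, and dpy-22 was in the top regions of 1 replicate only. The other kinase module genes, cdk-8 and let-19, were not bound. ama-1, which encodes the largest subunit of the polymerase, was not bound. Of 19 general transcription factor genes, 3 were bound (15.8%): the TFIIH kinase gene cdk-7 (409.2, rank 172), pqn-51 (232.6) and gtf-2E2 (75.04). Replicates 1, 2 and 3 gave 2, 3 and 3, and gtf-2E2 was in the top regions of 1 replicate only. The TATA-binding protein gene tbp-1 and the TFIIB gene ttb-1 were not bound.

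Of 13 elongation genes, 4 were bound (30.8%): cdk-9 (135.4), rtfo-1 (119.6), ccnk-1 (95.78) and cdk-12 (95.40), of which the last 2 encode a cyclin and its kinase. Replicates 1, 2 and 3 gave 5, 6 and 6, and pafo-1 was outside the IDR list although it was in the top regions of every replicate. The rtfo-1 point source lay at −491 bp, near the edge of the window. Of 11 Integrator genes, whose products process small nuclear RNAs and end short transcripts, 5 were bound (45.5%): ints-4 (529.0, rank 78), ints-1 (176.3), ints-9 (128.7), ints-8 (117.1) and ints-11 (78.27). Replicates 1, 2 and 3 gave 6, 5 and 5. Of 10 genes of RNA polymerases I and III, 1 was bound (10%), rpac-19 (166.4), whose product is shared by those polymerases, and replicates 1, 2 and 3 gave 2, 3 and 0.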

How the data were processed

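The authors deposited, per the labels, a relaxed region list per replicate, a pooled one, and the optimal IDR list, on builds ce11 and ce10. Only the ce11 lists were used. Each deposited list gives a signal value per region, called the score here, and a −log10 q-value, which was not used for ranking. The deposited point source is an offset from the region start. Which caller and IDR threshold were used is not given in the sources used here. The control was not analysed here.

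Coordinates are 1-based. Genes and TSSs came from Ensembl release 115 (WBcel235, the same assembly as ce11), sequence from RefSeq. Counting used Python 3.11.15, numpy 2.4.6 and scipy 1.17.1, and the counting was tested on simulated data. Each region and gene was counted without a statistical test, beside the same count over all protein-coding genes.

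The members and lists were chosen with earlier results of these data known. Every bound member was named, as were unbound members in a replicate's top regions and bound genes of the other lists. The regions upstream of mdt-19, taf-12 and mdt-6 and the hexamers GTGTGC and GGGCGG were chosen after values were seen. From the other lists pqn-38 matched no symbol, and tfg-1, a secretory pathway gene entered in error, was dropped. Alternatives covered the promoter window, the list, the replicates, the TSS and the neighbours.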

Additional observations from a re-analysis of the deposited data

How the results depend on the processing

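The number of bound members (15 of 48) stayed within 1.5 times under all 16 alternatives, from 10 to 21. It was 12 to 13 when a replicate was left out. The share of all protein-coding genes then fell too, from 12.7% to 9.30%, 9.52% and 9.95% without replicates 1, 2 and 3. The alternatives are not independent. The 5167 highest-scoring distinct regions of the pooled list gave the same 15 members and 2533 protein-coding genes as the IDR list. Several other alternatives only remove members from these 15. Leaving out replicate 1 removed rpb-8, taf-10 and taf-6.2, replicate 2 taf-10 and taf-6.2, and replicate 3 rpb-8 and taf-6.2. The IDR list itself was not made anew, so these sets are stricter. Assigning each point source to the nearest coding TSS alone gave 10 members (20.8%), 3 of them rpb genes, against 10.4% of all protein-coding genes. The median score was then 152.0 and the median position −160 bp. The window from 200 bp before to 100 bp after the TSS gave 12 members, of which 3 taf genes, with a median position of −133 bp. It gave 1391 of all protein-coding genes (6.96%), a fall of more than 1.5 times from 2533. The window from 1000 bp before to 200 bp after the TSS gave 20 members (41.7%), against 16.3% of all protein-coding genes, and a median score of 169.5. These held 7 mdt genes, of which mdt-6, mdt-19 and mdt-26 were gained. Counting the first gene of a same-strand run gave 9 mdt genes. The upper part of the IDR list gave 12 members and a median score of 173.0. It gave 1549 of all protein-coding genes (7.76%), also a fall of more than 1.5 times. Regions that ranked in the top of each of the 3 replicates gave a median of 173.0 too. The outermost TSS gave a median score of 152.0, and leaving out a replicate 162.6 to 173.0. Overlap of the region gave a median position of −134 bp. In the whole relaxed lists 22 members had a region in all 3 replicates (20.7% of all protein-coding genes), and in the top regions 12 (8.75%). In the upper part of the top regions 10 did (5.24%). No paired analysis was possible because there is only 1 group.

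Scores are on different scales in each list, and read depth is unknown, so neither a change of binding strength nor a limit of detection can be given. With 15 bound members, 1 member is worth several percent of a share. The −log10 q-values were not compared.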
